A study of Mus musculus with 4 samples.

Results

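The genes that write, copy and remove DNA methylation were followed in nascent RNA of double positive (DP) thymocytes with and without Tox4. The group held 7 genes, taken by name from the 24984 rows of a fragment count table: the maintenance methyltransferase gene Dnmt1 and its guide Uhrf1, the de novo methyltransferase genes Dnmt3a and Dnmt3b, and the dioxygenase genes Tet1, Tet2 and Tet3. All 7 were found and all 7 had a mean of at least 1 CPM, the fragments of a gene divided by the total of its library and scaled in the usual way, a level reached by 11625 genes. RNA was measured by TTchem-seq, in which cells take up 4-thiouridine for a short time and the labelled RNA is fragmented, captured and sequenced, so that the signal runs over introns and exons of genes being transcribed. The 4 libraries came from mice of genotype Tox4;F/F, called WT, and of genotype Tox4;F/F;Lck+, called cKO, with 2 libraries each. Both genotypes carry the floxed Tox4 allele, on a C57BL/6 background, and the methods describe littermates aged 6 to 8 weeks. In cKO mice, Cre from the proximal Lck promoter removes exons 4 to 6 of Tox4 from the double negative stage of thymocyte development onward, before the DP stage is reached. How the DP cells of this assay were purified is not given in the sources used here.

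DNA methylation is placed on cytosines of CpG dinucleotides. Dnmt1 copies it onto the new strand after replication, and Uhrf1 binds the half-methylated CpG left behind the fork and brings Dnmt1 there. Dnmt3a and Dnmt3b methylate DNA that carried no mark, and Tet1, Tet2 and Tet3 oxidise 5-methylcytosine, which is then lost by dilution at replication or by excision and repair. In the thymus, Dnmt1 is needed for the survival of developing T cells, DNA methylation keeps Cd4 silent in the CD8 lineage, and Tet2 and Tet3 act on lineage genes such as Zbtb7b.

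In WT and cKO DP thymocytes alike, Tet3, Dnmt1, Uhrf1 and Dnmt3a were well transcribed. Per kb of gene, Tet2 stood near the middle of the genes with at least 1 CPM, and Tet1 and Dnmt3b were low. No gene of the group passed the test between genotypes. Uhrf1 had the widest spread of the group, from 51.0 CPM in WT replicate 1 to 90.2 CPM in cKO replicate 2, and its position in the comparison rested on which WT library was used. Dnmt1 and Tet2 were also higher in both cKO libraries than in both WT libraries, by smaller amounts, and the other 4 genes overlapped between genotypes.

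**Figure D1:**
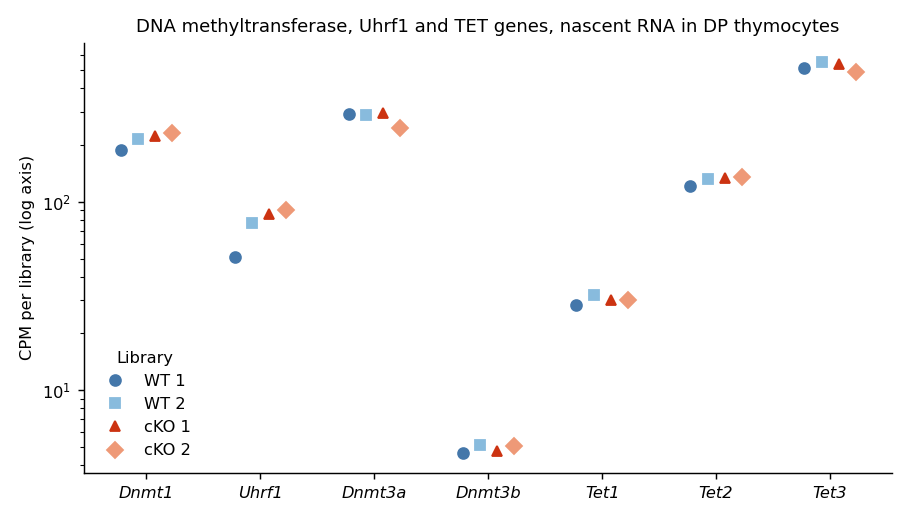
CPM of the 7 genes on a log axis, with 1 point for each of the 2 WT and 2 cKO libraries. For Dnmt1, Uhrf1 and Tet2 both cKO points lie above both WT points, Uhrf1 in WT replicate 1 (51.0 CPM) stands below its other 3 libraries (77.6 to 90.2 CPM), and for the other 4 genes the genotypes overlap.

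The start regions of the 7 genes were read from RefSeq windows of GRCm38.p6, each running from 250 bases before to 50 bases after an annotated start. All 7 genes had a window, and there were 12 windows in all. They were searched on both strands for E2F type letters (TTTCGCGC or TTTGGCGC or TTTCCCGC), the kind of sequence found at genes that are switched on for DNA replication. Among the 7 genes, Dnmt1 and Uhrf1 held such letters, each in 1 of its windows, which makes 2 of the 12 windows. Over all 32851 windows the share holding them was 1.84%, and over the 11584 windows of genes with at least 1 CPM it was 3.68%. Of the partners of maintenance methylation described below, 4 of 10 genes with a window held them (Hells, Cdca7, Lig1 and Pclaf), and of the S phase genes 7 of 14 did. These list counts are per gene, over any of its windows, whereas the shares above are per window. A match describes the letters in the window and is no evidence of binding. The windows of Dnmt1, Uhrf1, Hells and Cdca7 are printed with the E2F type letters in capitals, because Dnmt1 and Uhrf1 are the members that hold them and Hells and Cdca7 are the partners of maintenance methylation that passed the test between genotypes. Tet2 is printed as the window with the most CpG.
Dnmt1 (chr9:20952574-20952873, minus strand): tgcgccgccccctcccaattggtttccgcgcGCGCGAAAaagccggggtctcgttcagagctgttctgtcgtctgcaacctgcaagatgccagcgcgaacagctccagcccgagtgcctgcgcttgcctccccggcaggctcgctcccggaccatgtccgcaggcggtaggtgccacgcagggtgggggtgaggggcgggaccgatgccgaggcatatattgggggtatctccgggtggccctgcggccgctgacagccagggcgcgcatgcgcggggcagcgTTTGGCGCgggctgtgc
Uhrf1 (chr17:56304063-56304362, plus strand): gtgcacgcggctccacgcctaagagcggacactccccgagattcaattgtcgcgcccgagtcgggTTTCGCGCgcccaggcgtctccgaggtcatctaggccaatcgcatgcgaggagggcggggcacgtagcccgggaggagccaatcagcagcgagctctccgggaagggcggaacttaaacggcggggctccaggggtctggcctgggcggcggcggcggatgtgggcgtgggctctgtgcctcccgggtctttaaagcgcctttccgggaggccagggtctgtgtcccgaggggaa
Hells (chr19:38930740-38931039, plus strand): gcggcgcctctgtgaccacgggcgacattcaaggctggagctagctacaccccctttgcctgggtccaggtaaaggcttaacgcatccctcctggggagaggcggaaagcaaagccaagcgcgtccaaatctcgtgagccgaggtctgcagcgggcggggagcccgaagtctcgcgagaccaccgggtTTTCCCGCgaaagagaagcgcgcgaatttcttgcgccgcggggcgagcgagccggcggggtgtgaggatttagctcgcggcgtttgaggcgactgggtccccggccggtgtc
Cdca7 (chr2:72475969-72476268, plus strand): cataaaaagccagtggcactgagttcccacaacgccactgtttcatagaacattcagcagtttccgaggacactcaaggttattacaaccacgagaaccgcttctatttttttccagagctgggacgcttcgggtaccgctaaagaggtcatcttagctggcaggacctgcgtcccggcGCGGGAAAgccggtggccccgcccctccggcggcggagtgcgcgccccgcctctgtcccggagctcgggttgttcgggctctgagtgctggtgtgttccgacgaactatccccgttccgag
Tet2 (chr3:133544341-133544640, minus strand): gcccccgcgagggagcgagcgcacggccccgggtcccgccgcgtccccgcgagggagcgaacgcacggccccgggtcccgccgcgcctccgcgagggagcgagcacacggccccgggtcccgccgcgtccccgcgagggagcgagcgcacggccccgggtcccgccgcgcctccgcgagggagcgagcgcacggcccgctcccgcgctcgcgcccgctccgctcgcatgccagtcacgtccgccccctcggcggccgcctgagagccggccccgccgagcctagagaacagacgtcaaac
In the Dnmt1 window the matches began 219 bases before and 33 bases after the start, and in the Uhrf1 window the match began 185 bases before it. In Hells and Cdca7 the match began 62 and 71 bases before the start.

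The windows also differed in CpG content, the substrate of the enzymes themselves. The Tet2 window held 57 CpG dinucleotides in 300 bases, more than 99.8% of all windows. The windows of Dnmt3a at its pair of upstream starts held 46 and 47, and the one at its downstream start held 18. The most upstream window of Dnmt1, at chr9:20959839-20960138, held 2, against 33 in the window printed above. The Uhrf1 windows held 12 and 33, that of Dnmt3b 30, that of Tet3 22 and that of Tet1 17. The median was 7 over all windows and 21 over the windows of genes with at least 1 CPM, so that 7 of the 12 windows were above the transcribed median. Which start each gene used in these cells was not measured here.

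Levels of different genes were compared per kb of gene, with the deposited length, which covers introns. Tet3 (chr6:83362374-83456392) was the highest of the group, at 5.65 ± 0.29 CPM per kb in WT and 5.48 ± 0.37 in cKO (SD, n = 2 libraries each). Dnmt1 (chr9:20907206-20959888) was at 3.85 ± 0.37 CPM per kb in WT and 4.32 ± 0.12 in cKO. Uhrf1 (chr17:56303337-56323486) was at 3.19 ± 0.93 CPM per kb in WT and 4.38 ± 0.14 in cKO. Dnmt1 and Uhrf1, next to each other in this order, overlapped in their libraries in both genotypes, with 3.59 and 4.11 CPM per kb for Dnmt1 in WT against 2.53 and 3.85 for Uhrf1. Uhrf1 in turn overlapped Dnmt3a in WT only.

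Dnmt3a (chr12:3806980-3914443) was at 2.71 ± 0.04 CPM per kb in WT and 2.53 ± 0.33 in cKO. Tet2 (chr3:133463677-133544390) was at 1.57 ± 0.10 CPM per kb in WT and 1.66 ± 0.01 in cKO. These 5 genes stood between percentile 53.5 (Tet2) and percentile 87.7 (Tet3) of the level per kb over the 11625 genes. Tet1 (chr10:62804570-62887324) was at 0.364 ± 0.032 CPM per kb in WT and 0.365 ± 0.001 in cKO, at percentile 20.7. Dnmt3b (chr2:153649449-153687730) was the lowest, at 0.127 ± 0.009 CPM per kb in WT and 0.128 ± 0.005 in cKO, at percentile 10.1. Apart from Dnmt1 with Uhrf1 and Uhrf1 with Dnmt3a, no neighbours in the order overlapped in their libraries within a genotype. Without the division by length, Dnmt3a moved up to 2nd place, Dnmt1 was 3rd, Tet2 4th and Uhrf1 5th. Counted from its downstream start, 45418 bp in place of 52683 bp, Dnmt1 would be at 4.74 CPM per kb over the 4 libraries and still in 2nd place.

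**Figure D2:**
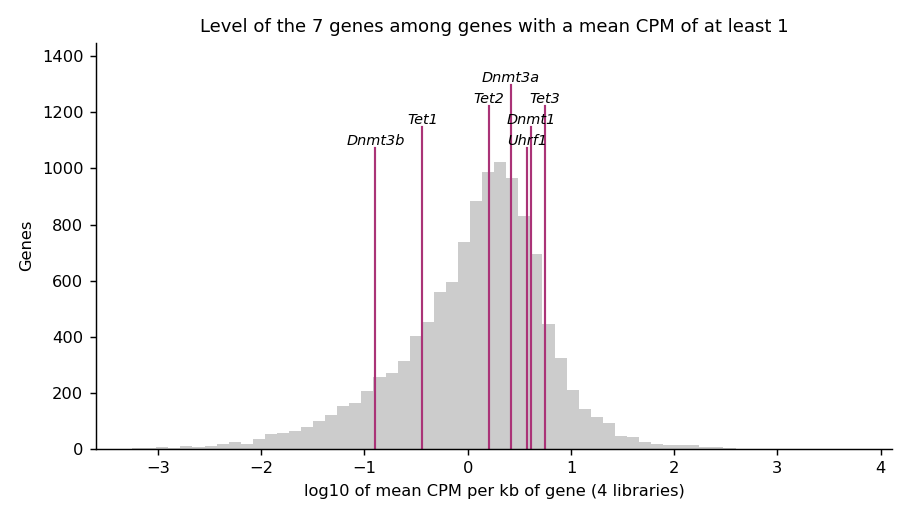
Histogram of the log10 mean CPM per kb of gene over the 11625 genes with a mean of at least 1 CPM, with a line for each of the 7 genes. Tet3, Dnmt1, Uhrf1 and Dnmt3a lie in the upper part of the distribution, Tet2 near its middle, and Tet1 and Dnmt3b in the lower part, at percentiles 20.7 and 10.1.

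Within each enzyme family 1 gene led. The level of Dnmt3a per kb was 22.7 and 19.9 times that of Dnmt3b in the WT libraries and 22.2 and 17.4 times in the cKO libraries. Dnmt3a is the de novo enzyme of most adult tissues, and Dnmt3b is best known from the early embryo. The level of Tet3 per kb was 3.63 and 3.58 times that of Tet2 in WT and 3.47 and 3.12 times in cKO, and 15.9 and 15.1 times that of Tet1 in WT and 15.8 and 14.3 times in cKO. These family ratios were of like size in every library. The ratio of Dnmt1 to Uhrf1 per kb was 1.42 and 1.07 in WT and 0.989 and 0.984 in cKO, with WT replicate 1 the highest.

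The targeted gene was examined before the genotypes were compared. Tox4 was at 74.0 and 70.3 CPM in WT and 59.3 and 57.2 CPM in cKO. It fell by 0.31 on the log2 scale (SE 0.0998, DESeq2 adjusted p = 0.0453) in a count that covers the whole gene, the exons that remain included. With edgeR the adjusted p was 0.122. The libraries differed in a sex-specific transcript, Xist: its level was 172 CPM in WT replicate 1, 2.36 CPM in WT replicate 2, 1.09 CPM in cKO replicate 1 and 0 in cKO replicate 2, although the methods describe sex-matched littermates. WT replicate 1 therefore stands apart from the others in this transcript. Since the library with high Xist is a WT library, differences by sex and by genotype cannot be fully told apart with all libraries. The part of sex in the changes was not tested. The changes of Tox4, Uhrf1 and Dnmt1, the called related genes and the S phase list are given with and without WT replicate 1. The marker lists are given with all libraries only.

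Calls required an adjusted p of DESeq2 below 0.05, at least a 1.2-fold change and a mean level of 1 CPM or more. Of the 11625 genes, 3.71% were called in either direction, 2.14% increased and 1.57% decreased in cKO. Of the 7 genes of the group 0 were called. At an unadjusted p under 0.05 the count was 0 of 7 with DESeq2 and 1 of 7 with edgeR, where 1570 and 1812 of the 11625 genes passed the same limit. After adjustment edgeR called 0.654% of all genes in either direction and 0 of the 7. In 3 of the 7 genes the lower cKO library exceeded the higher WT library, against 24.9% of all genes, and in 0 of 7 the reverse was found, against 24.0%. With 7 genes these counts are small. The median log2 fold change was 0.01 over the 7 genes and 0.00 over the 11625.

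Among the maintenance genes, Uhrf1 was at 51.0 and 77.6 CPM in WT and 86.3 and 90.2 CPM in cKO. Both cKO libraries were higher than both WT libraries, and the gap between the WT libraries (0.60 on the log2 scale) was larger than that between WT replicate 2 and either cKO library. The log2 fold change was 0.45 (SE 0.305, 95% interval -0.15 to 1.05, DESeq2 adjusted p = 0.561), or 1.37-fold with an interval from 0.904 to 2.07. With edgeR the adjusted p was 0.268 and the unadjusted p was 0.0311. Leaving out WT replicate 1 lowered the log2 fold change to 0.17. Leaving out WT replicate 2 raised it to 0.79. Leaving out cKO replicate 1 or 2 gave 0.49 and 0.42.

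Dnmt1 was at 189.1 and 216.7 CPM in WT and 223.2 and 231.9 CPM in cKO. The cKO libraries were again higher than both WT libraries, and WT replicate 1 was the lowest of the 4. The log2 fold change was 0.16 (SE 0.0896, 95% interval -0.01 to 0.34, DESeq2 adjusted p = 0.417; edgeR adjusted p = 0.387). Leaving out WT replicate 1 gave 0.06 and leaving out WT replicate 2 gave 0.27. The interval for Dnmt1 ended at 1.26-fold, so that a change as large as the 1.37-fold estimate for Uhrf1 lay outside it. The difference between the changes of Uhrf1 and Dnmt1 was not tested.

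The de novo genes gave no separation between genotypes. Dnmt3a was at 294 and 287 CPM in WT and 297 and 246 CPM in cKO. The WT values lay between the cKO values, and cKO replicate 2 was the lowest library. The log2 fold change was -0.10 (SE 0.0918, 95% interval -0.28 to 0.08, DESeq2 adjusted p = 0.725), and it was 0.02 without cKO replicate 2. Dnmt3b was at 4.62 and 5.13 CPM in WT and 4.76 and 5.06 CPM in cKO, from 183 to 250 fragments per library. The cKO values lay inside the WT range. The log2 fold change was 0.01 (SE 0.284, DESeq2 adjusted p = 0.996), with a 95% interval from -0.55 to 0.56, the widest of the group after that of Uhrf1. A change of up to 1.48-fold in Dnmt3b lay within this interval and was not separable from no change in these libraries.

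Of the TET genes, Tet2 was at 121 and 132.1 CPM in WT and 134 and 135 CPM in cKO. Its cKO libraries were higher than both WT libraries, with a gap between WT replicate 2 and the cKO libraries smaller than that between the WT libraries. The log2 fold change was 0.08 (SE 0.0885, 95% interval -0.09 to 0.26, DESeq2 adjusted p = 0.78). Tet3 was at 511 and 550 CPM in WT and 540 and 491 CPM in cKO. The genotypes overlapped, with cKO replicate 2 the lowest. The log2 fold change of Tet3 was -0.05 (SE 0.079, 95% interval -0.20 to 0.11, DESeq2 adjusted p = 0.882). Tet1 was at 28.2 and 32.0 CPM in WT and 30.1 and 30.3 CPM in cKO, with the cKO values inside the WT range. Its log2 fold change was 0.00 (SE 0.134, 95% interval -0.26 to 0.26, DESeq2 adjusted p = 0.999). The intervals of Tet2 and Tet3 ended short of a 1.2-fold change in both directions, and that of Tet1 reached it on the upper side.

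**Figure D3:**
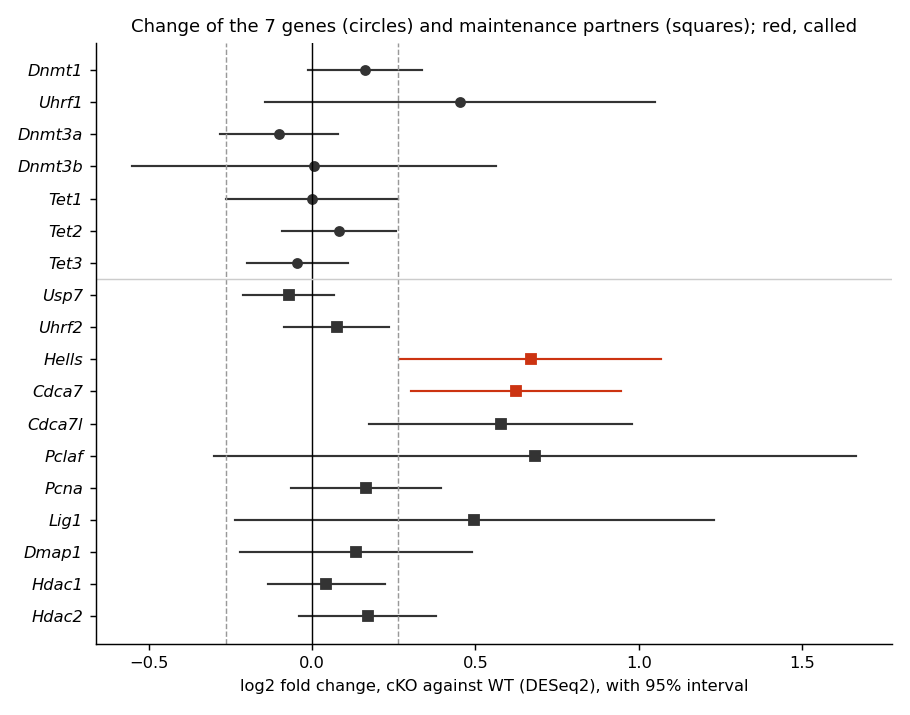
DESeq2 log2 fold change of cKO against WT with its 95% interval for the 7 genes (circles) and the 11 partners of maintenance methylation (squares), with dashed lines at a 1.2-fold change and called genes in red. Among the 7 genes the intervals of all include 0 and none is red, and among the partners Hells (0.67) and Cdca7 (0.62) are red.

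Genes that work with the group were taken from 9 lists, with 93 genes in all, of which 65 had a mean of at least 1 CPM. Of these, 4 (6.15%) were called increased, against 2.14% of all genes, and 0 decreased. The 4 were Hells, Cdca7, Neil3 and Cxxc5. With edgeR 0 of the 65 were called at its adjusted p, and the 4 had unadjusted edgeR p-values from 0.00845 to 0.0127.

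Increased genes were found among the 11 partners of maintenance methylation, all with at least 1 CPM. Of these, 2 were called increased and 0 decreased, the median log2 fold change was 0.17, and in 8 the cKO libraries were higher without overlap, which held for 24.9% of all genes. Hells, a chromatin remodeller that maintenance methylation needs, was at 10.3 and 15.4 CPM in WT and 19.2 and 21.8 CPM in cKO. It rose by 0.67 on the log2 scale (SE 0.204, DESeq2 adjusted p = 0.0296; edgeR adjusted p = 0.184). Cdca7, the zinc finger protein that binds Hells and activates it, was at 26.0 and 38.7 CPM in WT and 47.8 and 52.2 CPM in cKO. It rose by 0.62 on the log2 scale (SE 0.163, DESeq2 adjusted p = 0.00618; edgeR adjusted p = 0.174). In both genes the order of the libraries was that of Uhrf1, with WT replicate 1 lowest and cKO replicate 2 highest. The partners with the highest levels in CPM did not pass the test. Usp7, which removes ubiquitin from Uhrf1 and Dnmt1, had a log2 fold change of -0.07 (DESeq2 adjusted p = 0.752), and Uhrf2, the paralog of Uhrf1, had 0.08 (DESeq2 adjusted p = 0.782). Replication proteins that bind the same complex also did not pass: Pclaf had a log2 fold change of 0.68 (SE 0.501), Lig1 0.50 (SE 0.374) and Pcna 0.16 (SE 0.117).

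Among genes that act with or after Tet proteins, Cxxc5 was at 150.6 and 182 CPM in WT and 219 and 199 CPM in cKO. Cxxc5 encodes a CXXC domain protein that binds unmethylated CpG and interacts with Tet2. It rose by 0.33 on the log2 scale (SE 0.102, DESeq2 adjusted p = 0.0355; edgeR adjusted p = 0.202), the 1 call among 6 TET cofactors and regulators with at least 1 CPM. Ogt, the glycosyltransferase bound by Tet2 and Tet3 and the highest of that list in CPM, not corrected for length, had a log2 fold change of 0.08 (DESeq2 adjusted p = 0.764). Of 12 base excision genes with at least 1 CPM, Neil3 alone was called. Neil3, a DNA glycosylase for oxidised bases that is known from dividing cells, was at 16.9 and 26.7 CPM in WT and 33.9 and 35.0 CPM in cKO. It rose by 0.66 on the log2 scale (SE 0.185, DESeq2 adjusted p = 0.0142; edgeR adjusted p = 0.193). Tdg, the glycosylase that removes the oxidation products made by Tet proteins, had a log2 fold change of 0.02 (DESeq2 adjusted p = 0.969). The most transcribed genes of that list in CPM, Neil1 and Parp1, had log2 fold changes of 0.02 and 0.04.

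The log2 fold changes of the 4 genes moved with the WT libraries as that of Uhrf1 did. With WT replicate 1 left out, Hells had a log2 fold change of 0.40, Cdca7 0.36, Neil3 0.36 and Cxxc5 0.19. With WT replicate 2 left out, these log2 fold changes were 0.997, 0.95, 1.03 and 0.48 in the same order. Leaving out a cKO library kept them closer to those of the full set. Without cKO replicate 1 and 2 they were 0.77 and 0.57 for Hells and 0.70 and 0.56 for Cdca7. They were 0.69 and 0.63 for Neil3 and 0.26 and 0.39 for Cxxc5, which fell short of a 1.2-fold change without cKO replicate 1. Fits with 1 library in a genotype were read for their log2 fold changes only.

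**Figure D4:**
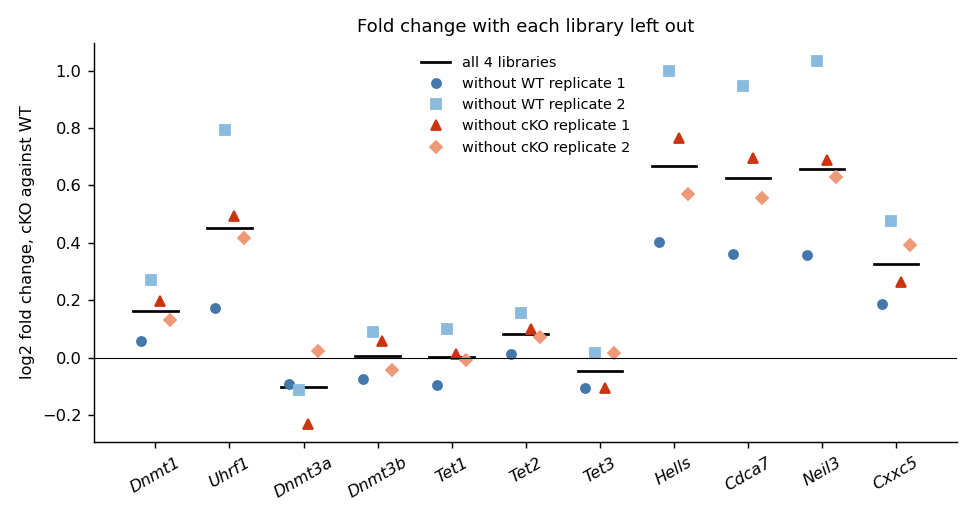
DESeq2 log2 fold change of cKO against WT for the 7 genes and the 4 called related genes, with all 4 libraries (black bar) and with each library left out (points). For Uhrf1, Hells, Cdca7 and Neil3 the value without WT replicate 1 (0.17 to 0.40) is the lowest and the value without WT replicate 2 (0.79 to 1.03) the highest, whereas the other genes of the group stay between -0.23 and 0.27.

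In the other lists no gene was called. Of the 7 partners of de novo methylation, 5 had at least 1 CPM, and the most transcribed of these in CPM, Ehmt1 and Nsd1, which encode histone methyltransferases, had log2 fold changes of 0.00 and 0.12. Dnmt3l, the germline cofactor of the Dnmt3 enzymes, had 0 fragments in 3 libraries and 1 in cKO replicate 2, and Zfp57, which protects imprints, had 0 in all 4. The floor of 3 fragments was between 0.0616 and 0.0781 CPM. All 10 methyl-CpG readers were transcribed, with a median log2 fold change of 0.02. Mbd2, a subunit of a repressor complex, was at 492 CPM over the 4 libraries and had a log2 fold change of 0.08, and Mbd5 had 0.13. Of 11 genes of the methyl donor cycle 10 had at least 1 CPM, with a median of 0.06, and Mtr and Ahcyl1 had log2 fold changes of -0.05 and 0.06. All 4 readers of unmethylated CpG were transcribed, and Kdm2b (844 CPM) and Kdm2a, histone demethylases with a CXXC domain, each had a log2 fold change of 0.07.

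Genes that DNA methylation is known to keep silent outside the germ line were nearly without signal in both genotypes. Of 13 such genes 1, Piwil2, had a mean of at least 1 CPM, at 1.99 and 1.58 CPM in WT and 2.94 and 2.14 CPM in cKO. Its log2 fold change was 0.50 (SE 0.433, edgeR adjusted p = 0.466), and DESeq2 gave no adjusted p at this level. The summed level of the 13 was 2.91 and 1.85 CPM in WT and 4.22 and 2.69 CPM in cKO, and 3 of them had no fragment in any library. Of 16 imprinted genes 6 had at least 1 CPM, and 0 were called. Their median log2 fold change was -0.12. The most transcribed in CPM, the antisense transcript Airn and the receptor gene Igf2r, which share a locus, had log2 fold changes of -0.12 (DESeq2 adjusted p = 0.657) and -0.15 (DESeq2 adjusted p = 0.492).

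Since Dnmt1 and Uhrf1 serve replicating cells, S phase genes were read beside them. Of 18 such genes, 4 were called increased by DESeq2 (Cdc6, Cdc45, Rrm1 and Pola1), or 22.2% against 2.14% of all genes, and 0 by edgeR. Their median log2 fold change was 0.42, all 18 had a value above 0, and in 16 the genotypes did not overlap, cKO being higher, as in 24.9% of all genes. Their summed level was 555.7 and 740 CPM in WT and 861 and 818 CPM in cKO. In all 18 genes WT replicate 1 was below WT replicate 2, with a median gap of 0.47 on the log2 scale, against 50.7% of all genes and a median gap of 0.00. WT replicate 1 was below WT replicate 2 in 6 of the 7 genes of the group, with a gap of 0.60 for Uhrf1, 0.20 for Dnmt1 and at most 0.18 for the other 4. Without WT replicate 1 the median log2 fold change of the S phase genes was 0.19, and without WT replicate 2 it was 0.74. The part of this difference between libraries in the values of Uhrf1, Dnmt1, Hells, Cdca7 and Neil3 was not tested. In bulk RNA of this kind, fewer cells of a type and less RNA per cell cannot be told apart.

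**Figure D5:**
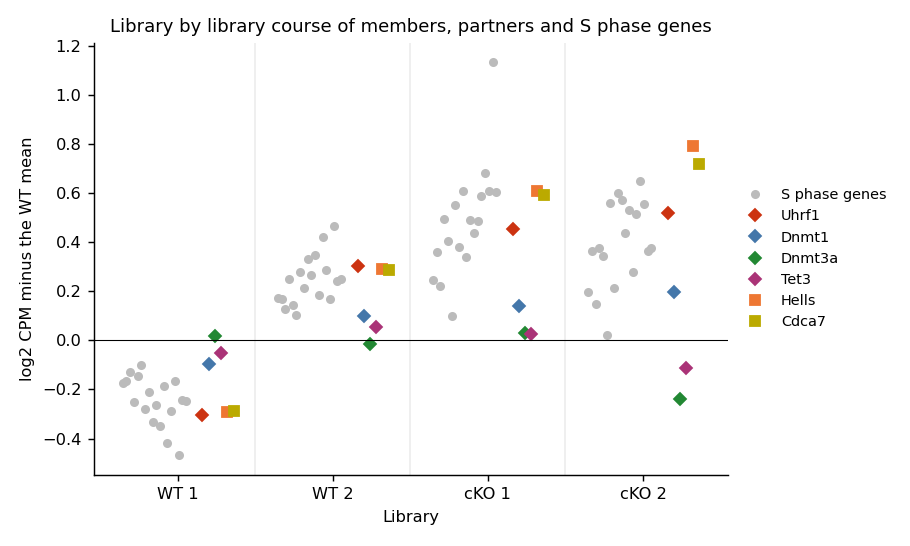
For each library, log2 CPM minus the mean of the 2 WT libraries, for the 18 S phase genes (grey circles), Uhrf1, Dnmt1, Dnmt3a and Tet3 (diamonds) and the maintenance partners Hells and Cdca7 (squares). WT replicate 1 is below 0 in all 18 S phase genes and in Uhrf1, Hells and Cdca7, all 3 of which lie above 0 in WT replicate 2 and higher still in both cKO libraries. Dnmt1 takes the same order over a narrower range.

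The genes whose levels followed Uhrf1 most closely were sought among 8147 genes with a mean of at least 10 CPM, by Euclidean distance of mean-centred log2(CPM + 0.5) over the 4 libraries. They were Zranb3 (distance 0.0332), a translocase of stalled replication forks, Pask (0.0656), a PAS domain kinase, and Cdc6 (0.0852), which loads the replicative helicase. Zranb3 was at 16.9 and 26.2 CPM in WT and 28.3 and 29.7 CPM in cKO, and was not called (DESeq2 adjusted p = 0.231). Like Uhrf1, all 3 had their lowest level in WT replicate 1. This is a description over 4 libraries.

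Markers of the labelled cell type were present: all 11 of the DP stage had at least 1 CPM, and they summed to between 13642 and 16095 CPM. Of these, 3 (Cd8a, Rag1 and Tcf7) were decreased with DESeq2, against 1.57% of all genes. Among markers of mature single positive cells, Ccr7 was decreased and Il7r and Runx3 were increased with DESeq2. With edgeR none of these 6 genes was called, at adjusted p-values from 0.0887 to 0.254. The summed level of 7 mature markers was 549 and 552 CPM in WT and 548 and 482 CPM in cKO. Summed levels of markers of other cells were lower, at 27.0 to 34.8 CPM over 6 markers of double negative progenitors, 12.2 to 14.2 CPM over 6 of B cells, 24.4 to 27.6 CPM over 6 of myeloid cells and at most 0.729 CPM over 6 of erythroid cells. The part of the marker differences in the values of the 7 genes was not tested.

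Annotated genes overlap some of the 7. The microRNA genes Mir7081 in Dnmt1 and Mir6374 in Tet3 lie on the same strand and held fragments equal to 0.184% and 0.0647% of those of their host. The antisense genes Dnmt3aos in Dnmt3a and B230319C09Rik in Tet3 held 3 and 18 fragments in all 4 libraries, against 47738 for Dnmt3a and 88867.5 for Tet3. Fractional values stood in the rows of Dnmt1, Tet1 and Tet3, and how they arose is not given in the sources used here.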

How the data were processed

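TTchem-seq of DP thymocytes was analysed in 2 WT and 2 cKO libraries, grouped by sample title. Per the submitters' processing notes, the authors used fastp 0.13.1, STAR 2.7.9a and featureCounts 1.6.1 with mm10. The deposited values are expected counts, that is, fragments per gene over introns and exons, of which 8.61% were fractional. The methods describe strand-specific libraries, gene counts from STAR's own counting and marking of duplicates. The deposited lengths include introns and some values are fractional, which that counting does not give, so the options behind this table, its use of strand and whether marked duplicates were counted are not known, and spike-in scaling was not used here.

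Counts were rounded. Totals were 42626473, 48690591, 38429786 and 39760312 fragments for WT replicates 1 and 2 and cKO replicates 1 and 2. Following the study's methods, genotypes were compared with the Wald test of DESeq2 1.42.0 (R 4.3.3) over all genes, with default size factors, unshrunken log2 fold changes, Benjamini-Hochberg adjustment and independent filtering at a target of 0.1. edgeR 4.0.16 and limma 3.58.1 (voom) were alternatives, beside other scalings, filters, thresholds, a replicate block and leaving out each library. CPM used the library totals and a log2 offset of 0.5 for distances and gaps between libraries. Intervals are 95% Wald intervals on the log2 scale. The procedures were tested on simulated data. Replicates of a genotype differed by more than counting noise (chi-square per degree of freedom 40.7 for WT and 30.7 for cKO). Nothing in the labels names the mice behind the libraries, so p-values measure the spread between these libraries, and fragments are not independent molecules.

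The members and lists were chosen with earlier results of these data known. Named were the 7 genes, Tox4, in each list every called gene and the 2 with the highest mean CPM, overlapping genes, the 3 genes nearest to the member of widest range, and markers by list. Xist, Dnmt3l, Zfp57, Pclaf, Lig1, Pcna and Tdg were named after their values were seen. Protein sequences were not used here. A marker result is not reported here.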

Additional observations from a re-analysis of the deposited data

How the results depend on the processing

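With 2 libraries per genotype, the values of Uhrf1 and of each called related gene moved most with which WT library was left out. Over 11 alternatives that kept all libraries, 0 of the 7 genes were called, and the log2 fold change was 0.45 to 0.48 for Uhrf1, 0.16 to 0.17 for Dnmt1, -0.11 to -0.10 for Dnmt3a, 0.08 to 0.09 for Tet2 and -0.05 to -0.04 for Tet3. The value of Tet1 changed sign, at -0.0018 with edgeR, -0.0029 with limma voom and -0.0015 with at least 1 CPM required in every library. With each library left out, the log2 fold change ran from 0.06 to 0.27 for Dnmt1, 0.17 to 0.79 for Uhrf1, -0.23 to 0.023 for Dnmt3a, -0.076 to 0.091 for Dnmt3b, -0.094 to 0.10 for Tet1, 0.012 to 0.15 for Tet2 and -0.11 to 0.017 for Tet3. The number of the 7 called increased then ran from 0 to 1, the called related genes from 0 to 7, the called S phase genes from 1 to 12, the median of the maintenance partners from 0.14 to 0.35 and that of the S phase genes from 0.19 to 0.74. The lone library of a genotype was assumed to vary like the other genotype. Over all genes the number called also changed with the library left out, and it was highest without WT replicate 2. The ranges of call counts were therefore not read as particular to these lists.

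Of the 4 related genes called increased, 0 were called with edgeR, 0 with limma voom and 2 without independent filtering. The 4 called S phase genes became 0 with edgeR, 0 with limma voom, 1 without independent filtering, 1 at a 1.5-fold criterion, 3 with at least 1 CPM required in every library and 6 with total count factors. Over all genes, 249 increased and 182 decreased with DESeq2, 59 and 17 with edgeR, 57 and 16 with limma voom, and 106 and 44 at a 1.5-fold criterion. The cause of these differences was not tested.

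Same-numbered libraries did not deviate together (correlation -0.03 over 11625 genes). Since each genotype had 2 libraries, this correlation cannot decide whether same-numbered libraries were collected as pairs. With the replicate number as a block, 2 related genes and 1 S phase gene were called increased with DESeq2, 0 and 1 with edgeR, and over all genes 121 increased and 72 decreased with DESeq2, 67 and 29 with edgeR. Uhrf1 had a log2 fold change of 0.48 with the block (DESeq2 adjusted p = 0.0699).

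The order of the levels was the same without Rn45s in the totals. The length of Dnmt1 from its downstream start was an alternative chosen after seeing the data.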
